A study of Mus musculus with 9 samples.

Results

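The mRNA abundance of 10 Fanconi anaemia genes was followed from the last mitotic spermatogonia into preleptotene (PL) spermatocytes, the cells that make the last DNA copy before meiosis. The members were chosen by name as the rows for Fanca, Fancb, Fancc, Fancg, Fancl, Fancm, Fancd2, Fanci, Brip1 and Palb2, which are 10 of the 24505 genes counted. All 10 passed the filter on low counts in each of the 3 comparisons.

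The 9 libraries were 3 of intermediate and type B (In/B) differentiating spermatogonia at P17, 3 of RA-sufficient PL spermatocytes at P19 and 3 of RA-deficient PL spermatocytes at P19. All came from Uchl1-eGfp mice, of C57BL/6 origin and outcrossed to CD-1, whose EGFP, under the Uchl1 promoter, is bright in spermatogonia and dim in PL spermatocytes. Every mouse received bis-(dichloroacetyl)-diamine (WIN), an inhibitor of retinoic acid (RA) synthesis, by mouth at 100 µg/g body weight from P1, and then a single injection of RA at P11 (10 µl of 10 µg/µl). The inhibitor was then stopped in the RA-sufficient mice, so that the testis could make its own RA again, and went on in the RA-deficient mice. The In/B mice were RA-sufficient according to the study's methods, while the sample records call them synchronized. Germ cells were sorted by EGFP. For its qRT-PCR measurements the study gives several males of a litter, and its sequencing methods do not state the pooling. The methods speak of 2 or 3 independent preparations without tying libraries to them, so the p-values measure the spread between libraries, part of which may be technical.

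The Fanconi anaemia pathway repairs crosslinks that tie both strands of DNA together. FANCM brings a core complex of FANCA, FANCB, FANCC, FANCG, FANCL and other subunits to the stalled replication fork, and FANCL, a ubiquitin ligase, marks the FANCD2-FANCI pair. The marked pair calls in nucleases and the proteins of homologous recombination, among them the helicase BRIP1 and PALB2, which joins BRCA1 to BRCA2. Mice that lack members of the pathway have few germ cells, and the pathway also acts on the sex chromosomes during meiosis.

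The stretches in front of the start sites of 4 members are shown, because these members differ in direction: Fanca fell, Fancc and Brip1 rose, and Fancg was not called in the comparisons that follow. They are the 250 bases before the first RefSeq start listed for each gene in GRCm38.p6, read 5′ to 3′ on the strand of the gene. Any other start of a gene was not searched, here or in the shares over all promoters. Capitals mark a CCAAT box (CCAAT, or ATTGG on the other strand), a motif of many promoters, in the first 3, and a match to a motif of the cell cycle factor E2F in Fancg. They lie at chr8:123318577-123318826 for Fanca, chr13:63431746-63431995 for Fancc, chr11:86201194-86201443 for Brip1 and chr4:43010302-43010551 for Fancg, all on the minus strand.
Fanca: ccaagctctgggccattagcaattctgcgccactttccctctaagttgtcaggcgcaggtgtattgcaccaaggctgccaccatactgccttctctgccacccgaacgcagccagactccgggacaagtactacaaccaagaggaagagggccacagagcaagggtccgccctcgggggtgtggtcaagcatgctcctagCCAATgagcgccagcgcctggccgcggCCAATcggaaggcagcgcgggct
Fancc: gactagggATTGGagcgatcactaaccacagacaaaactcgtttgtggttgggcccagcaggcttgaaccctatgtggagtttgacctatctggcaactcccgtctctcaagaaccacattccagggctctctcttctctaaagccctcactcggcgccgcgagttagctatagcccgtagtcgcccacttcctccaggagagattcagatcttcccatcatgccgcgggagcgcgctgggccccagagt
Brip1: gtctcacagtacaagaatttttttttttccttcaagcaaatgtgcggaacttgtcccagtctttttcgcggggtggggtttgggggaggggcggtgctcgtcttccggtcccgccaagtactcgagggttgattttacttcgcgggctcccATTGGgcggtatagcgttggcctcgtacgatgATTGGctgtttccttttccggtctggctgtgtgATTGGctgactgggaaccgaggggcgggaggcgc
Fancg: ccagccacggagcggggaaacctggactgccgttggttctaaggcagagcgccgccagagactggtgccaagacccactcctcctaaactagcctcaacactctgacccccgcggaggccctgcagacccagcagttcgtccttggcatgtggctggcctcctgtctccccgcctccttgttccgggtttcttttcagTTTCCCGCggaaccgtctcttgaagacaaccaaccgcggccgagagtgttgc

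RefSeq held such a stretch for 9 of the 10 members, and Fancd2 was without one in the table used. A CCAAT box was found in 5 of these 9, 3 times in Brip1, 2 times in Fanca and once each in Fancb, Fancc and Fancm, against 34.5% of 27025 promoters of the same length. It therefore stood in front of members that rose and members that fell. The E2F motif (TTTCCCGC, TTTCGCGC, TTTGCCGC or TTTGGCGC, on either strand) was found in 1 of the 9, against 1.91% of all promoters. The letters CNCCTCAG, searched as a motif of the meiotic regulator STRA8 on either strand, were found in 0 of the 9 and in 6.39% of all promoters. No base was shared between these motifs in the stretches shown, and a match is a description of the letters only.

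Total counts ran from 12612959 to 27042274 per library. Before the members are described, the libraries were set against markers of the cells they are named for. Of 8 genes of preleptotene and leptotene spermatocytes, 7 were called higher than in In/B in both PL groups. Over all genes tested, 26.1% were called higher in RA-sufficient and 11.4% in RA-deficient PL. Among the RA-deficient libraries, however, replicates 1 and 2 stood apart from replicate 3: Kit, the receptor of differentiating spermatogonia, was at 561 and 521 normalized read counts (CPM, reads scaled to a common library size) in replicates 1 and 2 and at 20.3 CPM in replicate 3. In/B libraries held 327 to 404 CPM of Kit and RA-sufficient PL libraries 20.2 to 41.0 CPM. Of 5 genes of differentiating spermatogonia, 4 were called higher in RA-deficient than in RA-sufficient PL. In that comparison 687 of all 15352 genes tested were called higher and 1696 lower, 15.5% in either direction. Spo11, of the preleptotene genes, was at 31.6, 27.9 and 124 CPM in RA-deficient replicates 1, 2 and 3, while Prdm9 was at 630, 633 and 636 CPM. Across genes, log2 CPM of RA-deficient replicate 3 correlated (Pearson) at 0.84 to 0.90 with RA-sufficient PL libraries and at 0.79 to 0.83 with In/B. RA-deficient replicates 1 and 2 correlated at 0.76 to 0.83 with RA-sufficient PL and at 0.87 to 0.89 with In/B. The fold changes of the members in the RA-deficient group are therefore given with and without its replicate 3. A fit without replicate 3 keeps the libraries that were closer to In/B. The summed level of Sertoli cell genes (8 of 9 listed were in the table) was 2841 to 3707 CPM in RA-sufficient PL libraries, 67.6 to 349 CPM in In/B and 292 to 509 CPM in RA-deficient PL. All 8 Sertoli genes were called higher in RA-sufficient PL than in In/B and lower in RA-deficient than in RA-sufficient PL. The summed level of 14 S-phase genes was 3250 to 3326 CPM in In/B, 1470 to 2046 CPM in RA-sufficient PL and 2975 to 3383 CPM in RA-deficient PL. Against In/B, 0 of the 14 were called higher and 6 lower in RA-sufficient PL, and 2 higher and 3 lower in RA-deficient PL. The sum thus hides opposite changes: Mcm5 was at 405 to 478 CPM in In/B and 1048 to 1133 CPM in RA-deficient PL. Mcm2 was at 431 to 505 CPM in In/B and 65.0 to 228 CPM in RA-deficient PL. The part of these differences in the results on the members was not tested, and in bulk samples fewer cells of a type and less RNA per cell cannot be told apart.

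The question of the first comparison was how the pathway's mRNAs changed as In/B spermatogonia became RA-sufficient PL spermatocytes. Fancc and Brip1 rose, Fanca, Fancd2 and Fanci fell, and the other 5 members were not called. A gene was called where its level changed more than 2-fold (a log2 fold change above 1 or below -1) at a p under 0.05 from edgeR's quasi-likelihood test, adjusted over all genes tested. Of the 10 members, 2 were called higher and 3 lower, where 26.1% of all genes tested were called higher and 19.3% lower, 45.4% in all. The share of members called was thus near that of all genes. Their median log2 fold change was -0.53, against 0.04 over all genes tested. In the second comparison, of RA-deficient PL spermatocytes with In/B, 2 members were called higher (Fancc, Brip1) and 2 lower (Fanca, Fancd2), against 11.4% and 11.8% of all genes and 23.2% in all. Their median was -0.11, against 0.00 over all genes, and it was 0.11 without RA-deficient replicate 3 and -0.43 when libraries were scaled by size only. At the adjusted p alone, with no limit on the fold change, 8 members passed in the first comparison and 4 in the second, against 65.0% and 36.7% of all genes. The In/B libraries are shared by both comparisons, so their calls are not independent. Values below are CPM after scaling over all 9 libraries, in the order of replicates 1, 2 and 3, and each fold change comes from the fit of the 6 libraries compared, which scales them by themselves.

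**Figure D1:**
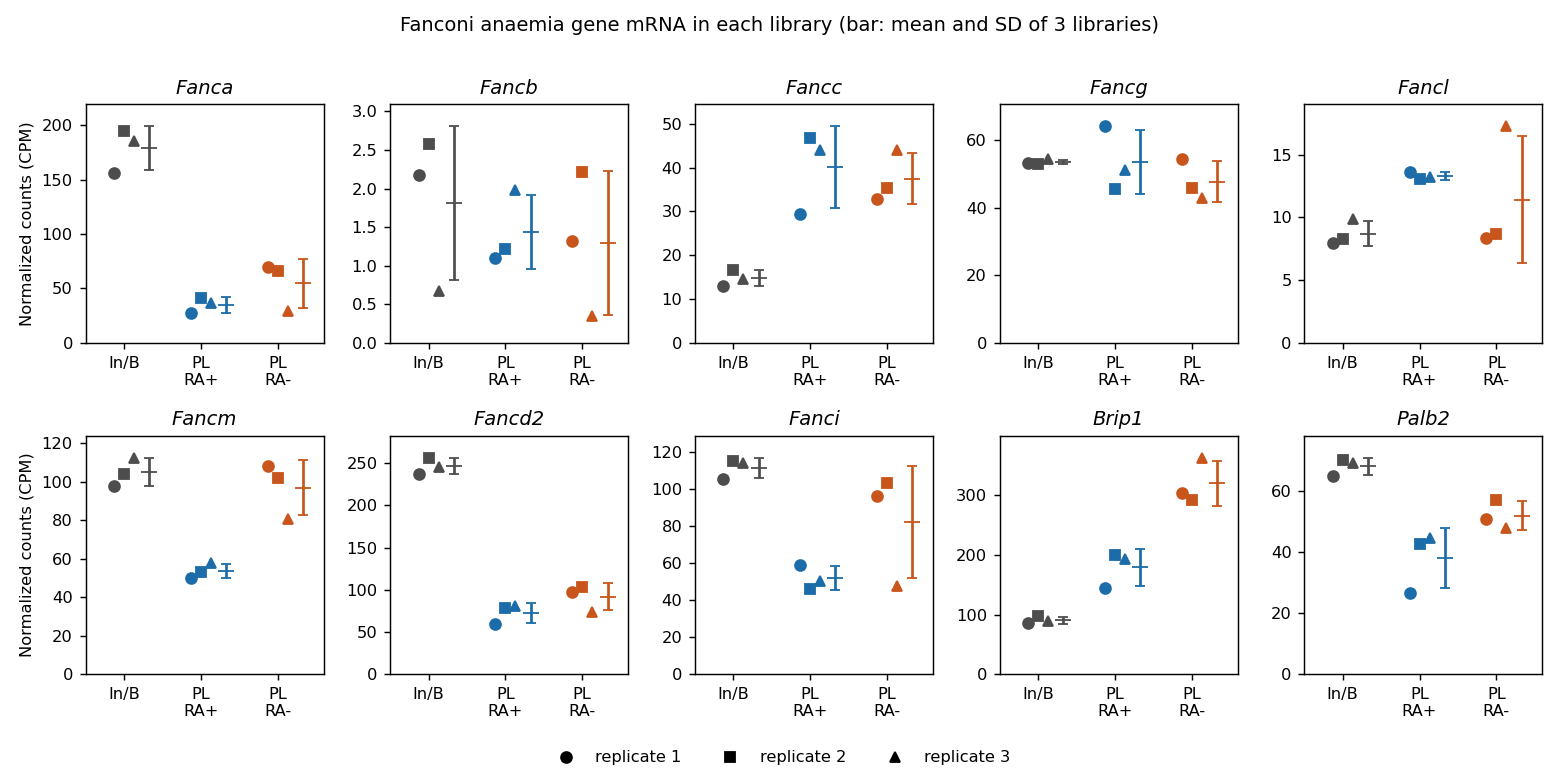
Normalized counts (CPM, linear axes from 0) of the 10 members in each library, with replicates 1, 2 and 3 as circles, squares and triangles and the mean and SD of 3 libraries as a bar for In/B spermatogonia, RA-sufficient PL (RA+) and RA-deficient PL (RA-) spermatocytes. Fanca and Fancd2 are highest in In/B, Fancc and Brip1 are lowest there, and RA-deficient replicate 3 lies near the RA-sufficient libraries for Fanca and Fanci.

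Within the core complex, Fanca and Fancc moved in opposite directions. Fanca, which encodes a scaffold subunit (mm9, chr8:125792200-125842476, minus strand), was at 156, 195 and 185 CPM in In/B. It was at 27.1, 41.4 and 37.0 CPM in RA-sufficient PL and at 69.9, 65.6 and 28.9 CPM in RA-deficient PL. Every PL library was below every In/B library, and RA-deficient replicate 3 lay among the RA-sufficient libraries. Against In/B, Fanca was 4.88-fold lower in RA-sufficient PL (log2 fold change -2.29 ± 0.18 SE, edgeR adjusted p = 2.14e-05) and 2.90-fold lower in RA-deficient PL (-1.53 ± 0.31, adjusted p = 0.00624). Without RA-deficient replicate 3 the latter was -1.23 (adjusted p = 1.67e-04) and still called. Of the 8491 exon bases of Fanca, 652 are shared with Zfp276 on the opposite strand.

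Fancc, another core subunit (chr13:63406017-63598586, minus strand), was at 13.1, 16.6 and 14.6 CPM in In/B. In RA-sufficient PL it was at 29.4, 46.9 and 44.0 CPM, and in RA-deficient PL at 33.0, 35.3 and 44.1 CPM. All 6 PL libraries were above the 3 In/B libraries, and the PL groups overlapped. It rose 2.82-fold in RA-sufficient PL (95% interval of the log2 fold change 0.99 to 2.00, edgeR adjusted p = 4.40e-04) and 2.85-fold in RA-deficient PL (1.03 to 1.99, adjusted p = 0.00112). The difference between the PL groups was -0.10, with a 95% interval from -0.62 to 0.43. Fancc shares 185 of its 7884 exon bases with 2010111I01Rik on the opposite strand.

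Fancg, Fancl and Fancb, the remaining core subunits of the rule, were not called in any comparison. Fancg (chr4:43015215-43023378, minus strand) was at 53.3, 53.0 and 54.3 CPM in In/B, 64.2, 45.5 and 51.0 CPM in RA-sufficient PL and 54.6, 45.8 and 42.9 CPM in RA-deficient PL. The 3 groups overlapped. The log2 fold change against In/B was 0.05 in RA-sufficient PL (95% interval -0.31 to 0.42) and 0.00 in RA-deficient PL (-0.37 to 0.37).

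Fancl, the ubiquitin ligase of the complex (chr11:26286135-26371876, plus strand), was at 7.94, 8.32 and 9.84 CPM in In/B. RA-sufficient PL libraries held 13.6, 13.0 and 13.2 CPM, and RA-deficient libraries 8.32, 8.64 and 17.3 CPM. RA-sufficient PL lay above In/B without overlap (0.67 ± 0.22 SE, edgeR adjusted p = 0.0258), below the fold change a call needs. The adjusted p was above 0.05 with all 9 libraries in a single fit (0.144), with the replicate number as a block (0.0644), with no filter (0.0520) and without In/B replicate 2 (0.0994) or RA-sufficient replicate 2 (0.0704) or 3 (0.0630). In the RA-deficient group replicates 1 and 2 were at the In/B level and replicate 3 was above every other library, and the difference from In/B was 0.56 ± 0.37 (adjusted p = 0.287). Fancl shares 462 of its 3372 exon bases with Vrk2 on the opposite strand. Fancb, on chromosome X (chrX:161418524-161435204, plus strand), had 8 to 68 reads per library and 0.350 to 2.57 CPM, with overlap of all groups. Its log2 fold changes of -0.27 and -0.30 against In/B had standard errors of 0.55 and 0.90, so a change of the size seen in Fanca was not detectable at this depth in the RA-deficient group.

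Fancm, the translocase that anchors the core complex to DNA (chr12:66176593-66233045, plus strand), was at 97.9, 104 and 113 CPM in In/B. It was at 50.0, 53.3 and 57.7 CPM in RA-sufficient PL and at 108, 102 and 80.8 CPM in RA-deficient PL. The RA-sufficient libraries were the lowest 3, while the RA-deficient libraries overlapped with In/B. Fancm was 1.88-fold lower in RA-sufficient PL than in In/B (log2 fold change -0.91 ± 0.12 SE, edgeR adjusted p = 2.98e-04), just under the fold change a call needs. In RA-deficient PL the difference from In/B was 0.05, with a 95% interval from -0.30 to 0.41.

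The genes of the FANCD2-FANCI pair, whose proteins bind each other, differed from each other. Fancd2 (chr6:113481676-113547011, plus strand) was at 238, 256 and 245 CPM in In/B, 59.1, 78.7 and 80.9 CPM in RA-sufficient PL and 97.6, 104 and 73.9 CPM in RA-deficient PL. All PL libraries were below all In/B libraries. Fancd2 was 3.25-fold lower in RA-sufficient PL (log2 fold change -1.70 ± 0.14 SE, edgeR adjusted p = 2.64e-05) and 2.39-fold lower in RA-deficient PL (-1.25 ± 0.15, adjusted p = 6.32e-04). It shares 257 of its 7937 exon bases with 4931417G12Rik on the opposite strand.

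Fanci (chr7:86536815-86595151, plus strand) was at 105, 115 and 114 CPM in In/B, 59.0, 46.3 and 50.7 CPM in RA-sufficient PL and 96.1, 103 and 47.7 CPM in RA-deficient PL. RA-deficient replicates 1 and 2 were just under the In/B range and replicate 3 was within the RA-sufficient range. Fanci was 2.07-fold lower in RA-sufficient PL than in In/B (-1.05 ± 0.13 SE, edgeR adjusted p = 2.02e-04), and its call was lost without RA-sufficient replicate 2, at -0.97. In RA-deficient PL it was not called (-0.27 ± 0.27, adjusted p = 0.488), and without replicate 3 the log2 fold change was 0.01 (adjusted p = 0.955). Fanci shares 856 of its 5766 exon bases with Polg on the opposite strand.

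The downstream members also went apart. Brip1, the helicase (chr11:85871638-86014695, minus strand), was at 85.4, 97.5 and 89.2 CPM in In/B. It was at 144, 200 and 194 CPM in RA-sufficient PL and at 304, 293 and 363 CPM in RA-deficient PL. The 3 groups did not overlap, and the RA-deficient libraries were the highest. It rose 2.06-fold in RA-sufficient PL (log2 fold change 1.04 ± 0.14 SE, edgeR adjusted p = 3.24e-04) and 3.97-fold in RA-deficient PL (1.99 ± 0.13, adjusted p = 5.46e-05). The call in RA-sufficient PL stood close to the limit, since the log2 fold change was 0.995 without In/B replicate 1, 0.95 without RA-sufficient replicate 2, 0.99 without RA-sufficient replicate 3 and 0.99 with all 9 libraries in a single fit, which ended it each time.

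Palb2, whose protein recruits BRCA2 (chr7:129250776-129276460, minus strand), was at 64.9, 70.1 and 69.1 CPM in In/B. The RA-sufficient PL libraries had 26.7, 42.4 and 44.6 CPM and the RA-deficient PL libraries 50.7, 56.9 and 47.7 CPM. The groups did not overlap, with RA-sufficient PL lowest and In/B highest. The difference of RA-sufficient PL from In/B was 1.72-fold (-0.78 ± 0.20 SE, edgeR adjusted p = 0.00758) and fell short of a call, and that of RA-deficient PL was -0.23 ± 0.15 (adjusted p = 0.277).

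**Figure D2:**
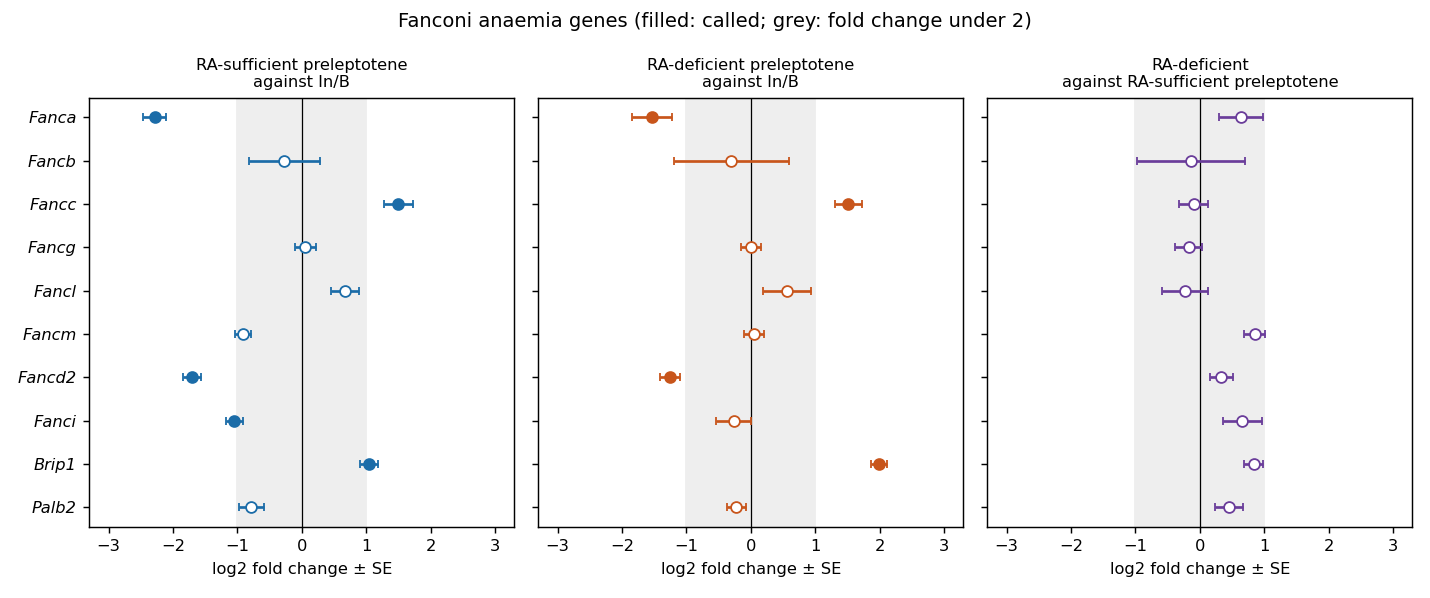
Log2 fold change with its standard error (edgeR, 3 libraries against 3) of each member in the 3 comparisons, with called genes filled and fold changes under 2 shaded grey. Fanca, Fancc, Fancd2 and Brip1 are called against In/B in both PL groups, Fanci in RA-sufficient PL, and none of the 10 between the PL groups.

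The comparison of the PL groups asked whether the pathway's mRNAs in PL spermatocytes depended on RA made after the single injection. In edgeR's test 0 of the 10 members were called, where 15.5% of all genes tested were, and DESeq2 also called 0. At an unadjusted p under 0.05 there were 2 members, Brip1 and Fancm. These same 2 members, both higher in RA-deficient PL, were those that passed at the adjusted p alone, as did 23.6% of all genes. The median log2 fold change of the members was 0.39, against -0.09 over all genes tested, and it was 0.25 without RA-sufficient replicate 1 and 0.49 without RA-deficient replicate 3. The 5 members that were lower in RA-sufficient PL than in In/B at the adjusted p alone had positive values here: Fanca 0.64 ± 0.34, Fanci 0.66 ± 0.30, Fancd2 0.33 ± 0.18, Palb2 0.45 ± 0.22 and Fancm 0.85 ± 0.16 (log2 fold change ± SE). That sign is not independent evidence, since the RA-sufficient libraries stand in both comparisons.

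Fancm was 1.80-fold higher in RA-deficient than in RA-sufficient PL (edgeR adjusted p = 0.0104, or 0.0539 without RA-sufficient replicate 2) and Brip1 1.78-fold higher (0.83 ± 0.14 SE, adjusted p = 0.00798). No library of the RA-deficient group overlapped with the RA-sufficient group in either gene, and the same was true of Palb2, so 3 of 10 members did not overlap, against 47.4% of all genes. Fanca (adjusted p = 0.215), Fanci (0.155), Palb2 (0.173) and Fancd2 (0.227) did not pass. Without RA-deficient replicate 3, Fanca was 0.95 ± 0.20 (edgeR adjusted p = 0.00873), Fanci 0.95 ± 0.15 (0.00265), Fancm 0.97 ± 0.13 (0.00144) and Brip1 0.74 ± 0.16 (0.00790), all below the fold change of 2 that a call needs. In that fit Fancd2 was 0.47 ± 0.17 (adjusted p = 0.0548), Palb2 0.51 ± 0.24 (0.127), Fancc -0.22 ± 0.23 (0.480), Fancg -0.08 ± 0.19 (0.759), Fancl -0.64 ± 0.26 (0.0864) and Fancb 0.30 ± 0.68 (0.749). The RA-deficient libraries kept there are replicates 1 and 2. Of the genes of differentiating spermatogonia, their Kit, Sohlh2 and Stra8 lay above the In/B range. Their Dmrt1 lay below it (460 and 485 CPM, against 534 to 711 CPM in In/B) and Sohlh1 near its lower end. The part of such differences in these values was not tested.

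Against In/B, 8 of the 10 members did not overlap with RA-sufficient PL and 6 did not overlap with RA-deficient PL, against 71.5% and 54.6% of all genes. Leaving out RA-deficient replicate 3 left the 4 calls of that group against In/B in place, with log2 fold changes of -1.23 for Fanca, 1.38 for Fancc, -1.12 for Fancd2 and 1.89 for Brip1. The other members stayed uncalled in that fit, at 0.08 for Fancg, 0.13 for Fancl, 0.14 for Fancb, 0.17 for Fancm, 0.01 for Fanci and -0.17 for Palb2.

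Ratios of read counts between members within a library do not depend on how libraries are scaled, and the pairs given were chosen after their values were seen, so they carry no test. Brip1 to Fanca, the members of the largest rise in RA-deficient PL and the largest fall, was 0.548, 0.500 and 0.481 in In/B. It was 5.33, 4.84 and 5.24 in RA-sufficient PL and 4.35, 4.46 and 12.6 in RA-deficient PL. The ratio was thus above 1 in all 6 PL libraries and below 1 in all In/B libraries, with RA-deficient replicate 3 the highest. Brip1 to Fancd2 went from 0.360, 0.380 and 0.364 in In/B to 2.44, 2.54 and 2.40 in RA-sufficient PL and 3.12, 2.81 and 4.92 in RA-deficient PL. Fancd2 to Fanci was 2.26, 2.22 and 2.14 in In/B, with little spread. It was 1.00, 1.70 and 1.60 in RA-sufficient PL and 1.02, 1.01 and 1.55 in RA-deficient PL, so that RA-sufficient replicate 1 was level with RA-deficient replicates 1 and 2, and RA-deficient replicate 3 with RA-sufficient replicates 2 and 3. Stra8, an early marker of the RA response, divided the PL libraries in the same way. It was at 444, 126 and 121 CPM in RA-sufficient and 377, 365 and 81.5 CPM in RA-deficient replicates 1 to 3. The study proposes that the Stra8 mRNA level of PL spermatocytes does not depend on RA. Kit, Dmrt1, Sohlh1 and Sohlh2 did not divide the libraries so. In them RA-sufficient replicate 1 lay near RA-sufficient replicates 2 and 3 (Kit 41.0, 32.8 and 20.2 CPM). The part of Stra8 in the ratio was not tested.

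**Figure D3:**
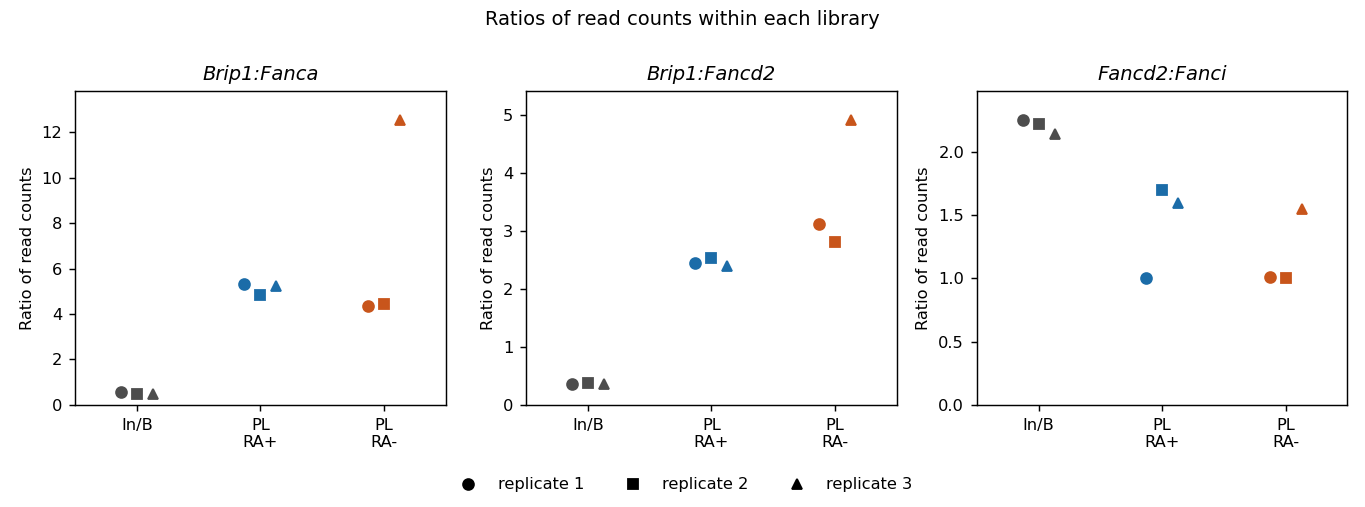
Ratios of read counts within each library (linear axes from 0) for Brip1 to Fanca, Brip1 to Fancd2 and Fancd2 to Fanci, with replicates 1, 2 and 3 as circles, squares and triangles. The 2 ratios with Brip1 are lowest in In/B and Fancd2 to Fanci is highest there, and RA-deficient replicate 3 has the highest Brip1 to Fanca ratio, 12.6.

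Per kilobase of exon, the order of the members also changed. In In/B, Fancd2 led with 31.0 ± 1.20 CPM per kb (SD, n = 3), followed by Fanca (21.1 ± 2.39) and Fanci (19.4 ± 0.95), whose ranges overlapped. Fancg, Fancm, Palb2 and Brip1 came next at 14.1 to 12.2 CPM per kb, each overlapping with its neighbour, and Fancl (2.58), Fancc (1.87) and Fancb (0.607) were lowest and apart from each other. In RA-sufficient PL, Brip1 led with 24.1 ± 4.09 CPM per kb, apart from Fancg at 14.1 ± 2.53. Fancd2, Fanci, Palb2 and Fancm followed at 9.19 to 6.90 CPM per kb with overlap between neighbours, then Fancc, Fanca and Fancl at 5.08 to 3.94, also overlapping. In RA-deficient PL, Brip1 was at 42.9 ± 5.09 CPM per kb, apart from Fanci at 14.3 ± 5.24. Fanci, Fancg, Fancm, Fancd2 and Palb2 formed an overlapping series down to 9.54 CPM per kb, and Fanca was at 6.46 ± 2.65. Replicate 3 had the lowest values of Fanci (8.28) and Fanca (3.41) in that group, and each RA-deficient library held more Brip1 (39.2 to 48.7) than any held of another member (up to 17.9). Brip1 thus went from the seventh place in In/B to the first in both PL groups, and Fancb was last in all 3.

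A list of 35 further genes of the pathway and of crosslink repair was set beside the members, and all 35 were tested. Against In/B, 2 of them were called higher and 7 lower in RA-sufficient PL (median of the log2 fold changes -0.46), and 5 higher and 4 lower in RA-deficient PL (median 0.06). Over all genes 45.4% were called in RA-sufficient PL and 23.2% in RA-deficient PL, with medians of 0.04 and 0.00. Atr and Brca2 were called higher in both. Atr, the kinase that starts the response to stalled forks, was at 235, 319 and 287 CPM in In/B, 1151, 1673 and 1728 CPM in RA-sufficient PL and 1446, 1474 and 2339 CPM in RA-deficient PL. The PL libraries were far above In/B and overlapped with each other. Its log2 fold change was 2.49 ± 0.18 SE in RA-sufficient PL (edgeR adjusted p = 1.81e-05) and 2.81 ± 0.21 in RA-deficient PL (adjusted p = 9.94e-05). Brca2, a gene of homologous recombination whose protein is brought to DNA by PALB2, rose 3.75-fold (edgeR adjusted p = 1.93e-04) and 4.61-fold (adjusted p = 1.34e-04), while Palb2 itself was not called in either.

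The 7 genes called lower in RA-sufficient PL were Eme1, a nuclease subunit (-1.67), Rmi2 of the BLM complex (-1.29), the homologous recombination gene Xrcc2 (-1.22), the core complex subunits Faap100 (-1.14) and Faap20 (-1.01), the checkpoint kinase Chek1 (-1.12) and Apitd1, a partner of FANCM (-1.07). In RA-deficient PL, the genes called higher beside Atr and Brca2 were Ube2t, the conjugating enzyme that works with FANCL (1.19), Faap24, another partner of FANCM (1.06), and the translesion polymerase Rev1 (1.05). Those called lower were Mad2l2, a subunit of translesion polymerase zeta (-1.36), the nuclease subunit Ercc4 (-1.28), Eme1 (-1.23) and Xrcc2 (-1.19). Between the PL groups, 1 of the 35 genes was called, where 15.5% of all genes tested were. It was Cenpx, a partner of FANCM that was higher in RA-deficient PL (1.21 ± 0.30 SE, edgeR adjusted p = 0.0287).

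Some of these calls rested on single libraries. Faap20 lost its call without In/B replicate 1 (-0.89) or RA-sufficient replicate 3 (-0.95), and Apitd1 without In/B replicate 2 (-0.99). Ube2t (0.97) and Xrcc2 (-0.97) lost theirs in RA-deficient PL without its replicate 3. Faap24 was called in 1 of 6 fits with a library left out, and its adjusted p was between 0.0526 and 0.160 in the others. Its call was also lost with library size only (adjusted p = 0.131), no filter (0.0571) and the single fit (0.0503), and that of Rev1 with library size only (0.74) and the single fit (0.93). Ube2t lost its call in RA-deficient PL with library size only (0.87), and Faap20 in RA-sufficient PL with the replicate number as a block (-0.999). Without RA-deficient replicate 3, the log2 fold changes against In/B were 2.56 for Atr, 2.01 for Brca2, 1.04 for Rev1, -1.50 for Mad2l2, -1.31 for Ercc4 and -1.15 for Eme1, all still called. Cenpx was called in 2 of 6, and its adjusted p ranged from 0.0667 to 0.103 without RA-sufficient replicate 2 or 3 or RA-deficient replicate 1 or 2.

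**Figure D4:**
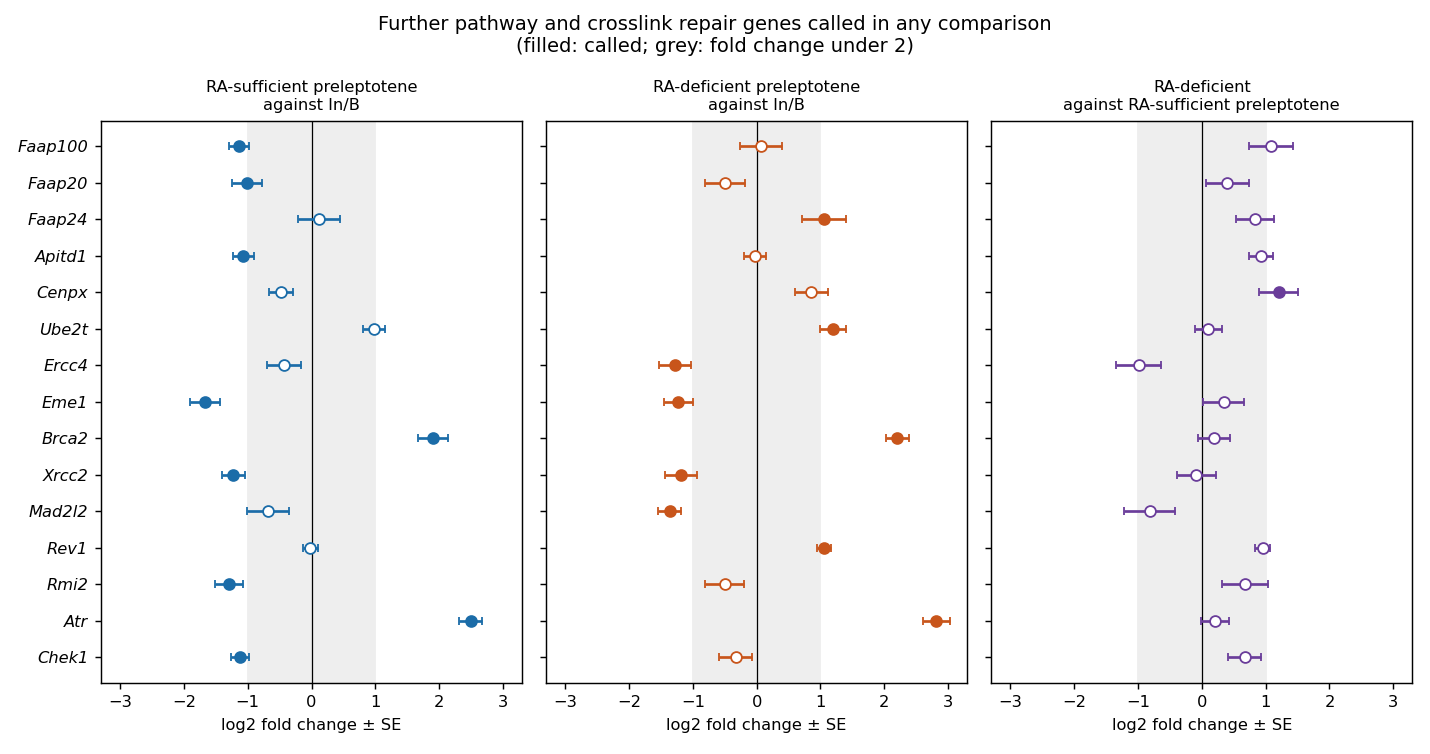
Log2 fold change with its standard error (edgeR, 3 libraries against 3) of the 15 further pathway and crosslink repair genes that were called in any of the 3 comparisons, with called genes filled and fold changes under 2 shaded grey. Atr and Brca2 are the genes highest in both PL groups against In/B, and Cenpx is the gene called between the PL groups.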

How the data were processed

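The values deposited by the authors are raw read counts for each gene in 9 libraries, with no normalization applied. Per the submitters' processing notes and the methods, single-end reads of stranded poly(A) libraries were trimmed with cutadapt 1.9, aligned to mm9 with STAR 2.5.2b and counted with featureCounts. The gene annotation and the use of strand in counting are not given in the sources used here, so genes that overlap on opposite strands may share counts. All 9 columns were matched to a library by name, and groups were taken from the sample titles.

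The members and gene lists were chosen with earlier results of these data known. All 10 members are described in all comparisons, and further pathway genes are named where called. Markers and libraries named beside a result were chosen after their values were seen. Counts over the list include a gene not reported here.

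Counts were tested with edgeR 4.0.16 in R 4.3.3 (TMM scaling, filterByExpr, quasi-likelihood test, Benjamini-Hochberg adjustment over all genes) on pairs of groups with 3 libraries each. In the comparisons with In/B, 15001 genes were tested for RA-sufficient PL and 14877 for RA-deficient PL, and between the PL groups 15352. The scripts were tested on simulated data. The study's methods name DESeq2, and DESeq2 1.42.0 was run as an alternative. CPM values were computed with TMM scaling over all 9 libraries. At these depths 3 counts correspond to 0.111 to 0.238 CPM. Exon lengths, overlaps and gene coordinates are from GENCODE M1 on mm9. Promoter stretches are from RefSeq on GRCm38.p6, and no coordinates were converted. Other alternatives were RLE scaling, library size only, no filter, a single fit of all libraries, the replicate number as a block, the adjusted p alone, and each library left out.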

Additional observations from a re-analysis of the deposited data

How the results depend on the processing

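Of the values of single members under the alternatives, 335 kept their direction and stayed called or uncalled, 5 kept their direction and lost the call, and 20 changed sign, none of which was called. The adjusted p crossed 0.05 with no change of call in 10, of which 6 were Fancl in RA-sufficient PL against In/B. With the adjusted p alone, 8 members passed in RA-sufficient PL against In/B and 2 between the PL groups, and 18, 18 and 9 of the further pathway genes passed in RA-sufficient PL against In/B, RA-deficient PL against In/B and between the PL groups, against 65.0%, 36.7% and 23.6% of all genes. With a library left out, 3 to 5 members were called in the comparison of RA-sufficient PL with In/B (3 without RA-sufficient replicate 2) and 4 in every fit of RA-deficient PL against In/B. The median log2 fold change of the members ranged from -0.75 to -0.36 in RA-sufficient PL and from -0.18 to 0.11 in RA-deficient PL against In/B, positive without RA-deficient replicate 3, and from 0.25 to 0.49 between the PL groups. With library size only, the median in RA-deficient PL against In/B was -0.43. That scaling moved the median of all genes by -0.316 in RA-deficient PL against In/B and by -0.183 between the PL groups. Between the PL groups the further genes called were 3 with library size only (1 higher, 2 lower), 2 without a filter, 2 with DESeq2, 2 with all libraries in a single fit, and 0 to 3 with a library left out (3 without RA-deficient replicate 3, and 0 without RA-sufficient replicate 2 or RA-deficient replicate 1 or 2). The cause was not tested. Over all genes tested, 2383 of 15352 were called between the PL groups before any alternative, and 4484 of 15799 without RA-deficient replicate 3.

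Deviations of same-numbered libraries from their group means, over 14010 genes, correlated at -0.29, -0.20 and -0.21 for RA-sufficient PL with In/B. They correlated at 0.16, -0.12 and 0.16 for RA-deficient PL with In/B and at -0.09, 0.02 and -0.12 for the PL groups. Between libraries of different numbers the correlations ran from -0.16 to 0.24, -0.23 to 0.18 and -0.08 to 0.12. With 3 libraries per group, these values cannot decide whether the replicate numbers pair libraries. With the number as a block the calls of members numbered 5, 4 and 0, as without it, and the further genes called between the PL groups were 2 (1 higher, 1 lower).

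The values that changed sign lay between -0.30 and 0.21 before any alternative was applied. In RA-deficient PL against In/B, Fancg was -0.00194 with RLE scaling, -0.314 with library size only, -0.0229 without a filter, -0.00372 with DESeq2, -0.127 in the single fit and -0.00522 with the block. In that comparison Fancm was -0.26 with library size only and -0.0766 in the single fit, and Faap100 was -0.251, -0.0669 and, with the block, -0.0353. Ube2t was -0.0860 between the PL groups with library size only. With a library left out, RA-sufficient PL against In/B ranged from -0.67 to 0.0345 for Fancb, -0.11 to 0.16 for Fancg, -0.0763 to 0.45 for Faap24 and -0.0564 to 0.0378 for Rev1. RA-deficient PL against In/B ranged from -0.95 to 0.14 for Fancb, -0.13 to 0.0776 for Fancg, -0.0564 to 0.17 for Fancm, -0.49 to 0.0094 for Fanci, -0.28 to 0.37 for Faap100 and -0.15 to 0.0418 for Apitd1. Between the PL groups the ranges were -0.77 to 0.30 for Fancb, -0.26 to 0.0215 for Fancc, -0.29 to 0.0060 for Fancg, -0.12 to 0.26 for Ube2t, -0.0287 to 0.38 for Brca2, -0.24 to 0.14 for Xrcc2 and -0.0477 to 0.34 for Atr.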

Other observations

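Among the further pathway genes, RA-deficient replicate 3 also lay close to the RA-sufficient libraries for some genes and not for others. Faap100, a core complex subunit, was at 49.6 and 65.5 CPM in RA-deficient replicates 1 and 2 and at 25.0 CPM in replicate 3, where RA-sufficient PL had 21.2 to 22.6 CPM. Chek1, a checkpoint kinase, was at 89.0, 84.0 and 46.8 CPM in the 3 RA-deficient libraries, and at 43.5 to 47.8 CPM in RA-sufficient PL. Rev1, a translesion polymerase, was at 157, 158 and 164 CPM in the RA-deficient libraries, which did not differ in this way, and at 75.4 to 85.5 CPM in RA-sufficient PL. Without replicate 3, 3 of the 35 further genes were called between the PL groups, where 4484 of all 15799 genes tested were. They were Cenpx at 1.48 ± 0.19 SE (edgeR adjusted p = 0.00120), Faap100 at 1.40 ± 0.19 (0.00131) and Slx4, the scaffold of the nucleases that cut at crosslinks, at -1.11 ± 0.15 (0.00141). Slx4 was at 68.1, 55.2 and 80.2 CPM in RA-deficient PL, 145, 137 and 121 CPM in RA-sufficient PL and 125, 124 and 115 CPM in In/B, so that all 3 RA-deficient libraries were below the other 6. These genes were singled out after their values were seen.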
